A study of Homo sapiens with 8 samples.

Results

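Hepcidin and the genes that move iron in and out of cells were followed on 8 Affymetrix expression arrays of Hep-3B and Huh7, established human hepatoma cell lines. A member was any probe set (a group of short probes read as 1 value) that the platform annotation pairs with HAMP, TFR2, TFRC, SLC40A1, BMP6, SLC11A2, ACO1, IREB2 or TMPRSS6 and with no other gene. That gave 24 of 54675 probe sets and 8 of the 9 genes, since IREB2 had no such probe set and was not analysed here. The genes were selected on results of these arrays, and which values were used is not recorded, so every difference between groups counts as used. Their values and calls are therefore a description, and no p-value is printed for them.

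Each line was infected with lentivirus carrying a short hairpin RNA against KLHL23 (shKLHL23) or, as control, against luciferase (shLuc), at a multiplicity of infection of 2, and infected cells were selected with puromycin. All 4 groups therefore carry a lentiviral hairpin and the selection, and the labels name a single hairpin against KLHL23, so what the hairpin does beyond KLHL23 cannot be told apart from KLHL23 loss. Each group holds 2 arrays, numbered 1 and 3 in the labels. Nothing in the labels ties the arrays to separate cultures, so the errors and p-values measure how far these arrays differ, and that may be technical.

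Hepcidin, the peptide made from HAMP, is a liver hormone that lowers iron in the blood. It binds ferroportin, the iron exporter encoded by SLC40A1, and causes it to be degraded. Hepatocytes raise HAMP transcription when bone morphogenetic proteins such as BMP6 signal through SMAD proteins with hemojuvelin (HJV) as coreceptor, and when interleukin signalling activates STAT factors, while the protease TMPRSS6 removes hemojuvelin and dampens the signal. TFR2 senses iron-loaded transferrin, TFRC is the receptor that takes it up, and SLC11A2 carries ferrous iron across membranes. ACO1 and IREB2 encode the iron regulatory proteins, which bind stem-loops called iron-responsive elements in transcripts such as those of ferritin, TFRC and SLC40A1.

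The promoter stretches of the hormone, the exporter and the uptake receptor are shown, and those of the other members, among them SLC11A2 with its called differences, are not. They are the 250 bases before the annotated start, 5′ to 3′ on the strand of the gene, from RefSeq on build GRCh38.p14: HAMP at chr19:35282278-35282527 (plus strand), SLC40A1 at chr2:189580787-189581036 (minus strand) and TFRC at chr3:196082091-196082340 (minus strand). Capitals mark matches to 4 motifs searched on both strands: GGCGCC (the core of a BMP response element), TTCNNNGAA (a STAT site), ACGTG (the core of a hypoxia response element) and TGANNNNGC (the core of an antioxidant response element).
HAMP: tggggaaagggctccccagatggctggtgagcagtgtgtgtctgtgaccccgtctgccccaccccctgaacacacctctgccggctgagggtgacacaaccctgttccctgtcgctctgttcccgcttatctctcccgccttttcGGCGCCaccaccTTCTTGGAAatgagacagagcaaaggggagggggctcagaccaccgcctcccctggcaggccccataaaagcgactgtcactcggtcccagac
SLC40A1: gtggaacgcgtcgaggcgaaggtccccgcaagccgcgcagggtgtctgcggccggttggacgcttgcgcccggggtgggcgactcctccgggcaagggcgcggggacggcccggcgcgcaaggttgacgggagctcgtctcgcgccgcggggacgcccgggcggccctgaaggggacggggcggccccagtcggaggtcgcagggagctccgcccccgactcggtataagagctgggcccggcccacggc
TFRC: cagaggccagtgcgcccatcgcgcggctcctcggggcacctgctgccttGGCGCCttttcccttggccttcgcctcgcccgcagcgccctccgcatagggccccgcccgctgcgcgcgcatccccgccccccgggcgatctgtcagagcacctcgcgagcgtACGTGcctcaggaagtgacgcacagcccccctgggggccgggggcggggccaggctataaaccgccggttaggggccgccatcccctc

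In HAMP, GGCGCC lay 105 to 100 bases before the start and TTCTTGGAA, a match to the STAT motif, 93 to 85 bases before it. In TFRC, GGCGCC lay 201 to 196 bases and ACGTG 88 to 84 bases before the start. None of the 4 motifs was found in the SLC40A1 stretch, which says only that these letters are not in this window. Matches are common: of 35116 promoters of the same length, 16.4% held GGCGCC, 6.57% the STAT motif, 18.5% ACGTG and 35.2% the antioxidant core, and none of the matches overlapped another in these 3 stretches. A match is a description and not a site shown to be used.

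Values are log2 expression as deposited. Array medians lay between 4.563 and 4.597, and the lower quartile of each array, below which a probe set counts as dim here, lay between 3.08 and 3.12. KLHL23, the targeted gene, was at 7.81 and 7.84 in Hep-3B control arrays and at 7.21 and 6.15 in knockdown arrays (difference -1.14, SE 0.27, limma adjusted p = 0.0765). In Huh7 it was at 7.89 and 7.87 in control arrays against 5.78 and 5.88 with knockdown and fell by 2.05 (SE 0.27, limma adjusted p = 0.00392). Knockdown was thus uneven in Hep-3B, and replicate 3 was the lower array. All 8 hepatocyte markers (ALB, APOA1, APOB, TTR, SERPINA1, FGB, AFP, TF) stood above the lower quartile in every group, with group medians of 12.11 to 12.91. Of these TTR rose in both lines, by 1.58 in Hep-3B (limma adjusted p = 0.0105) and 1.23 in Huh7 (limma adjusted p = 0.00608). Among markers of other liver cell types, LYVE1 rose in Hep-3B (1.30, limma adjusted p = 0.021), and in Huh7 KRT19 rose (1.32, limma adjusted p = 0.0026) and SOX9 fell (-0.56, limma adjusted p = 0.0298). The other endothelial markers did not rise with LYVE1 in Hep-3B: VWF -0.33, PECAM1 -0.18, KDR -0.13, CDH5 -0.01 and STAB2 0.11, none called. CDH5 and KDR were below the lower quartile on all 8 arrays. The other cholangiocyte markers in Huh7 were EPCAM 0.36, KRT7 -0.12 and CFTR -0.1, none called. KRT19, EPCAM and SOX9 were bright in both lines, with control means of 12.06, 11.21 and 10.67 in Hep-3B and 8.14, 10.47 and 11.52 in Huh7. KRT7 and CFTR were lower, with control means of 5.85 and 3.41 in Hep-3B and 6.01 and 3.46 in Huh7. The part of the called marker shifts in the results was not tested. Of the macrophage markers, which matter here because such cells also recycle iron, PTPRC was below the lower quartile on both arrays of all 4 groups. The other 4 measured macrophage markers had group means of at most 6.57 (CD14 in Huh7 control), and the log2 of the summed level of this list ran from 6.34 to 6.81 in Hep-3B and 7.05 to 7.41 in Huh7 arrays. The gap between the 3′ and the 5′ control probe set for ACTB, which grows as RNA degrades, moved in opposite directions in the lines: 0.442 and 0.537 in Hep-3B control against 0.737 and 0.753 in knockdown, and 0.873 and 0.833 in Huh7 control against 0.525 and 0.546 in knockdown. The same gap for GAPDH was 0.117 and 0.12 in Hep-3B control against 0.223 and 0.236 in knockdown, while the Huh7 groups overlapped, at 0.132 and 0.0887 against 0.148 and 0.112. The part of RNA integrity in the differences below was not tested.

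HAMP, the hormone, fell in Huh7 and stood far higher in Hep-3B than in Huh7. In Hep-3B it was at 11.42 and 11.34 in control arrays and at 11.04 and 10.69 in knockdown arrays. In Huh7 it was at 8.63 and 8.64 in control arrays and at 7.19 and 7.79 in knockdown arrays. The 4 groups did not overlap, and their order was Hep-3B control, Hep-3B knockdown, Huh7 control, Huh7 knockdown from highest to lowest. HAMP fell by 1.14 in Huh7 (SE 0.19, n = 2 per group), a 2.21-fold lower level, and was called at the threshold used for all probe sets (limma adjusted p under 0.05). In Hep-3B the difference was -0.52 (SE 0.19), which was not called. The 2 differences were not called different from each other (-0.62, SE 0.26). Huh7 control cells had 6.71-fold less HAMP signal than Hep-3B control cells (difference -2.75, SE 0.19). An array value cannot tell fewer expressing cells from less transcript per cell. The knockdown arrays of both lines were uneven: without Huh7 knockdown replicate 1 the Huh7 difference was -0.84 and without replicate 3 it was -1.44. Without Huh7 control replicate 1 or 3 it was -1.15 or -1.14 and was no longer called, in fits that called far fewer of all probe sets.

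**Figure D1:**
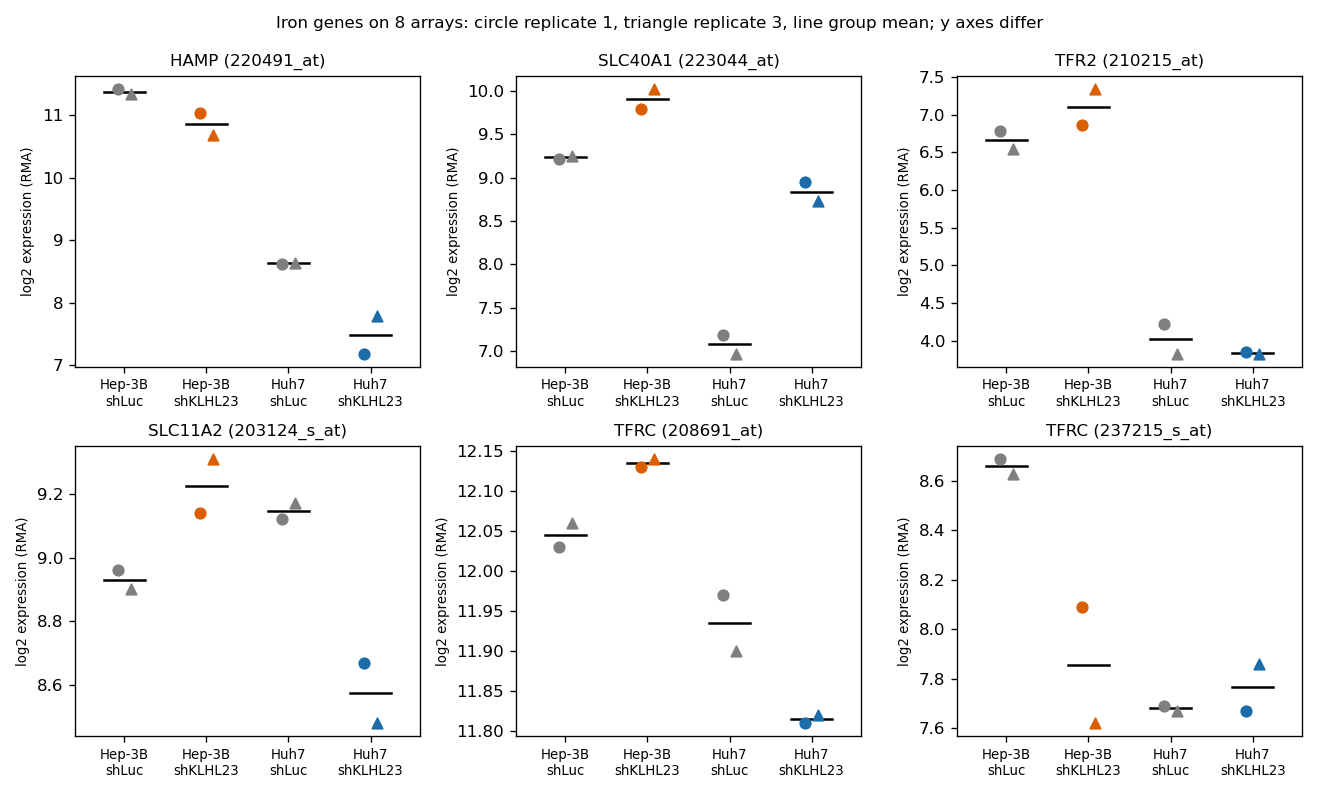
Log2 expression of 5 iron genes, with 2 probe sets of TFRC, on each of the 8 arrays, by line and hairpin. Circles are replicate 1, triangles replicate 3 and lines the group means of 2 arrays. HAMP runs from 11.42 in a Hep-3B control array down to 7.19 in a Huh7 knockdown array, SLC40A1 is higher in knockdown than control in both lines, and the y axes differ in range.

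SLC40A1, the exporter that hepcidin removes, rose in both lines. Its bright probe set 223044_at was at 9.22 and 9.25 in Hep-3B control arrays and at 9.79 and 10.02 in knockdown arrays. In Huh7 it was at 7.18 and 6.97 in control arrays and at 8.95 and 8.73 in knockdown arrays. Knockdown arrays lay above control arrays in both lines with no overlap. The rise was 0.67 in Hep-3B (SE 0.13, 1.59-fold) and 1.76 in Huh7 (SE 0.13, 3.39-fold), both called. The Huh7 rise exceeded the Hep-3B rise by 1.09 (SE 0.18), also called. Huh7 control cells were 4.47-fold lower than Hep-3B control cells (difference -2.16, SE 0.13), and the knockdown groups had means of 9.90 in Hep-3B and 8.84 in Huh7. The dimmer probe set 233123_at gave 0.27 in Hep-3B (SE 0.20) and 0.42 in Huh7 (SE 0.20), neither called. In Hep-3B it was at 5.74 and 6.05 in control arrays against 5.90 and 6.43 with knockdown, which overlap. In Huh7 it was at 4.96 and 4.54 against 5.06 and 5.27, which do not. The Huh7 rise of 223044_at was called without any single array, at 1.65 to 1.87. The Hep-3B rise was not called without control replicate 1 (0.65) or 3 (0.68), without knockdown replicate 3 (0.55), or without Huh7 control replicate 1 or 3 (0.67 each). These fits all called far fewer of all probe sets than the main fit, so a lost call there says little about this gene. The rise was also not called with further quantile normalization (0.68), with 1 probe set a gene (0.67) or without probe sets ending in _x_at or _s_at (0.67). With Hep-3B fitted alone it was 0.67, and 0 of 54675 probe sets were called there. The difference between lines was called in 1 of the 8 fits that leave out an array, the one without Huh7 knockdown replicate 3 (1.2). In the others it was 0.98 to 1.21. Most of the 8 fits called far fewer of all probe sets for this difference than the main fit.

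SLC11A2, the ferrous iron transporter, had 5 probe sets that did not move alike. Probe set 203124_s_at was at 8.96 and 8.90 in Hep-3B control and 9.14 and 9.31 in Hep-3B knockdown arrays. In Huh7 it was at 9.12 and 9.17 in control arrays against 8.67 and 8.48 with knockdown. It was therefore the higher group in Hep-3B knockdown and the lower group in Huh7 knockdown, with no overlap in either line. The Huh7 fall was 0.57 (a difference of -0.57, SE 0.11) and was called, the Hep-3B difference of 0.29 (SE 0.11) was not, and the difference between the lines of -0.86 (SE 0.16) was called. Probe set 203123_s_at gave -0.54 in Huh7 (SE 0.10, called), 0.22 in Hep-3B (SE 0.10, not called) and -0.76 between the lines (SE 0.14, called). The other 3 gave -0.13, -0.04 and -0.12 in Huh7 and -0.22, 0.02 and -0.28 in Hep-3B (203125_x_at, 210047_at and 237106_at), none called, and 237106_at was below the lower quartile on all 8 arrays. Of the 5, 203125_x_at alone was called between the control groups, lower in Huh7 (difference -0.48, SE 0.10). The mean over the 5 probe sets was -0.28 in Huh7 and 0.01 in Hep-3B. Neither Huh7 fall was called without Huh7 control replicate 1 or 3, where far fewer of all probe sets were called. With the replicate number as a block the difference between lines was called for neither probe set, where 0.975% of all probe sets were called. Nor was it called for either in any fit that left out an array, but most of those fits called far fewer of all probe sets.

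TFRC, the transferrin receptor that brings iron into cells, was bright and nearly level in 2 of its 5 probe sets. Its brightest probe set, 208691_at, lay between 11.81 and 12.14 on all 8 arrays and gave 0.09 in Hep-3B (95% interval -0.12 to 0.30) and -0.12 in Huh7 (-0.33 to 0.09). The next, 207332_s_at, gave 0.04 (-0.18 to 0.27) and -0.13 (-0.36 to 0.09). Probe set 237215_s_at stood apart. It was at 8.69 and 8.63 in Hep-3B control arrays and 8.09 and 7.62 in knockdown arrays, a called fall of 0.80 (SE 0.15), and in Huh7 at 7.69 and 7.67 in control arrays against 7.67 and 7.86 with knockdown (0.08, SE 0.15). The difference between the lines, 0.89 (SE 0.21), was not called, though it was without Hep-3B knockdown replicate 1 (1.12). This probe set was also the only 1 of the 5 called between the control groups of the lines, lower in Huh7 by 0.98 (difference -0.98, SE 0.15). The remaining 240686_x_at and 237214_at were not called in either line, and 237214_at was below the lower quartile on all arrays. Without Hep-3B knockdown replicate 3 the fall of 237215_s_at was 0.57 (-0.57) and not called, and without replicate 1 it was 1.04 (-1.04). It was not called without either Hep-3B control array (-0.77 and -0.84) or without any 1 of the 4 Huh7 arrays (-0.80 each). Of these fits, those without a control array of either line called far fewer of all probe sets, as did the one without Hep-3B knockdown replicate 3. Nor was it called with further quantile normalization (-0.79). With Hep-3B fitted alone it was -0.80, and 0 of 54675 probe sets were called there.

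TFR2, the transferrin sensor of hepatocytes, differed by line more than by hairpin. Probe set 210215_at was at 6.79 and 6.55 in Hep-3B control arrays against 6.86 and 7.34 with knockdown, and at 4.22 and 3.83 in Huh7 control arrays against 3.85 and 3.83 with knockdown. The Hep-3B knockdown arrays lay above their controls (0.43, SE 0.18, not called) and the Huh7 groups overlapped (-0.18, SE 0.18). Huh7 control cells were 6.26-fold lower (difference -2.65, SE 0.18, called). Probe set 207883_s_at was also lower in Huh7 control (-0.66, SE 0.11, called), while 215863_at was not (-0.04, SE 0.09) and spanned 0.15 over all arrays.

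The remaining members were not called in either line. BMP6, the iron-induced ligand, was low, with arrays of 4.41 to 5.10 in its brightest probe set, 206176_at, and differences of -0.02 in Hep-3B (95% interval -0.33 to 0.29) and -0.15 in Huh7 (-0.47 to 0.16). Its other 2 probe sets lay between 3.32 and 3.97. TMPRSS6, the protease that cleaves hemojuvelin, was at 6.13 and 6.24 in Hep-3B control arrays against 6.27 and 6.59 with knockdown in 214955_at (0.24, SE 0.13), and at 6.20 and 6.02 against 6.08 and 6.10 in Huh7 (-0.02, SE 0.13). Its other probe sets gave differences between -0.05 and 0.00. ACO1, the iron regulatory protein that is an aconitase when iron is plentiful, was at 8.16 to 8.41 in Hep-3B and 8.53 to 8.71 in Huh7 arrays in 207071_s_at, with 0.12 and 0.14 (SE 0.10 each). Its lower probe set 237622_at gave 0.16 and 0.24 (SE 0.18 each).

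Counted over all members, 2 of 24 probe sets were called in Hep-3B, 1 higher and 1 lower, where 1.14% of all probe sets were called, 0.492% higher and 0.647% lower. In Huh7 4 were called, 1 higher and 3 lower, against 8.49% of all, 3.83% higher and 4.67% lower. The difference between the lines was called for 3 members, 1 higher and 2 lower, against 0.933% of all, 0.444% higher and 0.488% lower. Between the control groups 7 were called, all lower in Huh7, against 25.8% of all in either direction and 12.9% lower. Since the members were picked with these results known, nothing is read from these counts. Knockdown and control arrays did not overlap for 14 members in Hep-3B and 10 in Huh7, where 49.8% and 49.2% of all probe sets were apart. The control arrays of the lines were apart for 17 members, against 62.6% of all. The median difference of the members was 0.04 in Hep-3B and -0.05 in Huh7, against 0.008 and 0.007 over all probe sets. Both Hep-3B calls were lost without either Hep-3B control array, without Hep-3B knockdown replicate 3 or without either Huh7 control array. Of the Huh7 calls only that of SLC40A1 was left without either Huh7 control array. In all these fits far fewer of all probe sets were called too, so no number is read from them. The Hep-3B call of TFRC was also lost without either Huh7 knockdown array.

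**Figure D2:**
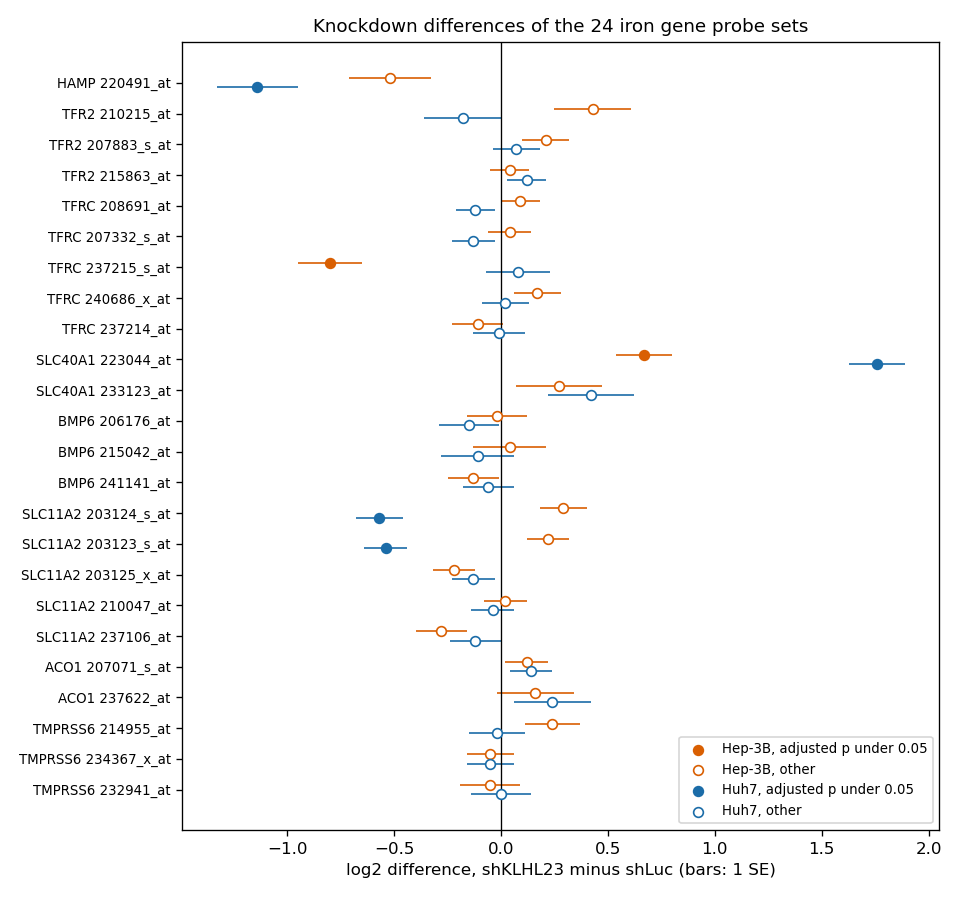
Log2 difference between knockdown and control (x axis) for each of the 24 member probe sets (y axis), in Hep-3B (orange) and Huh7 (blue). Points are the mean of 2 knockdown arrays minus the mean of 2 control arrays, bars are 1 SE, and filled points were called at a limma adjusted p under 0.05. SLC40A1 223044_at lies at 0.67 and 1.76, HAMP at -0.52 and -1.14, and the 2 bright SLC11A2 probe sets lie on opposite sides of 0 in the lines.

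Genes whose level followed a member over the 8 arrays were found by the root mean square difference after each gene was centred on its own mean. Closest to HAMP were PPP1R9A (0.301 log2 units), ATXN1-AS1 (0.313) and C9orf152 (0.315). All 3 were lower in Huh7 than in Hep-3B control, by -3.03, -2.36 and -2.68, and their knockdown differences in Huh7 were -0.52, -0.94 and -0.79. Closest to SLC40A1 were TUBA1A (0.235), GBP3 (0.241) and TIMP2 (0.241), with knockdown differences of 0.61, 1.08 and 0.58 in Hep-3B and 1.31, 1.69 and 1.2 in Huh7. Closest to TFR2 were FJX1 (0.174), CD7 (0.181) and DPP10 (0.189). The measure takes in the gap between the lines as well as the knockdown differences.

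The rest of the iron pathway was read from 7 lists with 134 genes, of which 121 had a probe set of their own. Each gene was represented by its brightest such probe set. The lists were chosen with earlier results of these data known. Their shares and p-values are therefore a description and no independent support for the member values. In Huh7 19 of 121 genes were called, 6 higher and 13 lower (15.7%, against 10.7% of all 19775 genes, of which 4.46% were higher and 6.2% lower), with a median difference of -0.01 against 0.00 for all genes. In Hep-3B 1 was called, higher (0.826%, against 0.956% of all genes, 0.718% higher and 0.238% lower), with a median of 0.04 against 0.02. The difference between lines was called by limma for 0 of the 121 genes, against 0.966% of all genes.

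Of 27 genes of BMP and SMAD signalling to hepcidin, 7 fell in Huh7 and 0 rose (25.9%, against 10.7% of all genes). The list had a median of -0.18. It was chosen with earlier results of these data known, so nothing is read from this share. ID1, a direct target of BMP-activated SMADs, was at 12.47 and 12.53 in control arrays against 12.06 and 11.76 with knockdown and fell by 0.60 (-0.60, SE 0.12, limma adjusted p = 0.0185). SMAD7, the feedback inhibitor that BMP signalling induces, had Huh7 control arrays of 7.81 and 7.99 and knockdown arrays of 7.42 and 7.30 (-0.54, SE 0.10, limma adjusted p = 0.0163). The coreceptor HJV was at 4.85 and 4.65 in control arrays against 4.28 and 4.07 with knockdown (-0.58, SE 0.12, limma adjusted p = 0.0227). None of these 3 genes had overlapping groups in Huh7, where 49.2% of all probe sets were apart. The receptor ACVR2A fell by 0.60 (-0.60, limma adjusted p = 0.011), and SMAD5 (-0.47), the pseudoreceptor BAMBI (-0.39) and FURIN (-0.44), a protease that processes prohepcidin, fell as well. HFE, the gene most often mutated in hereditary iron overload, was not called in Huh7 (0.19, limma adjusted p = 0.393) or in Hep-3B (-0.10, limma adjusted p = 0.776). In Hep-3B 0 of the 27 were called, with a median of -0.04. There ID1 was at 12.76 and 12.75 in control arrays against 12.54 and 12.41 with knockdown (-0.28, limma adjusted p = 0.296), SMAD7 at -0.19 (limma adjusted p = 0.439), HJV at -0.04 (limma adjusted p = 0.918) and GDF15 furthest from 0 at -0.90 (limma adjusted p = 0.0893). The ligand BMP2, picked out after its values were seen, was at 3.47 to 3.75 on all Hep-3B arrays and at 8.87 and 8.72 in Huh7 control against 8.43 and 7.86 in Huh7 knockdown arrays (-0.65, limma adjusted p = 0.0589). The 7 falls kept their number under further quantile normalization and under median centring. With Huh7 fitted alone 1 was called, where 3.91% of all probe sets were called against 8.49% in the main fit. Fewer were called without 1 control array of either line, but so were fewer of all probe sets, and no number is read from those fits.

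**Figure D3:**
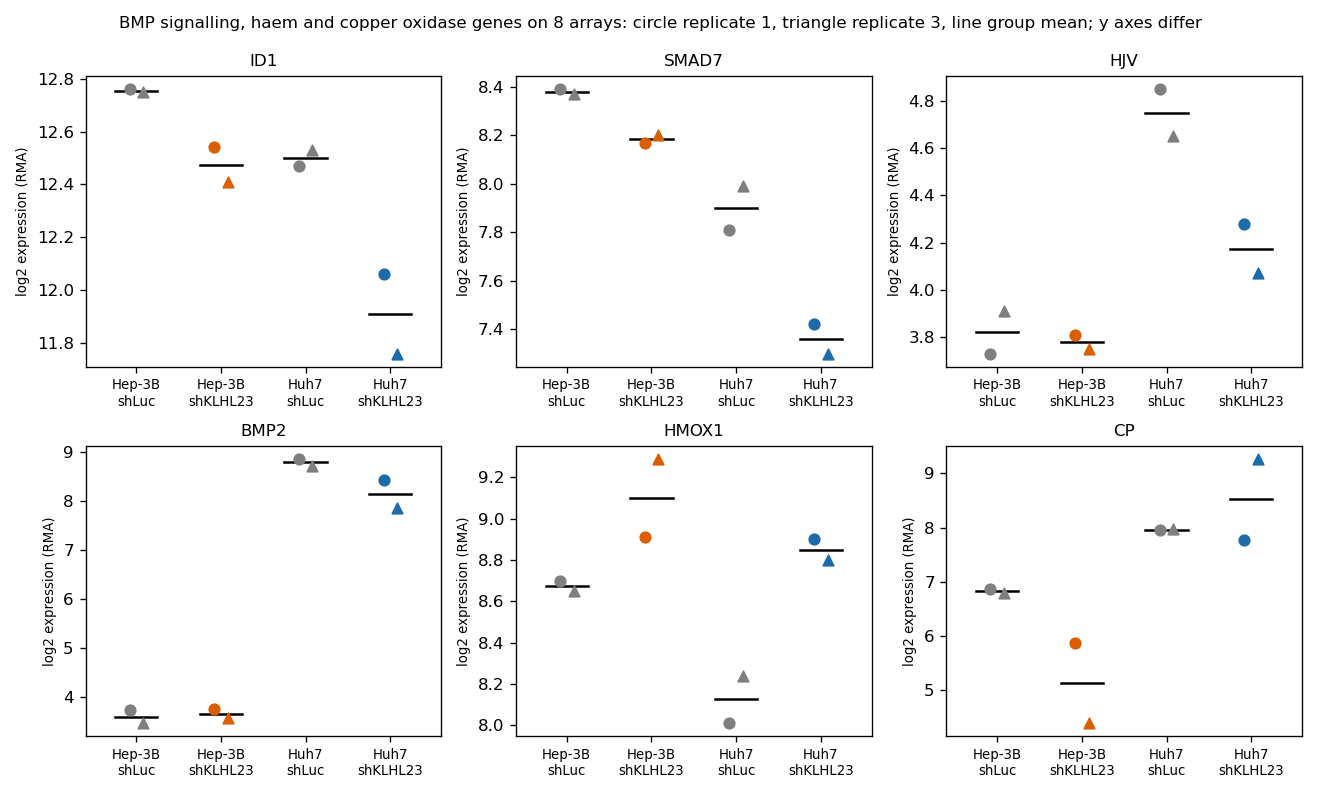
Log2 expression of ID1, SMAD7, HJV, BMP2, HMOX1 and CP on each of the 8 arrays. Circles are replicate 1, triangles replicate 3 and lines the means of 2 arrays. ID1, SMAD7 and HJV are lower in Huh7 knockdown than in Huh7 control arrays without overlap, BMP2 is near 3.6 in Hep-3B and above 7.8 in Huh7, and the knockdown arrays of CP differ widely; y axes differ in range.

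Among 13 measured genes of the inflammatory, stress and hepatocyte inputs to hepcidin, 2 rose and 1 fell in Huh7 and 0 were called in Hep-3B. The Huh7 share was 23.1%, against 10.7% of all genes, 4.46% higher and 6.2% lower. In Hep-3B 0.956% of all genes were called. CREB3L3, a liver transcription factor released from the endoplasmic reticulum that can raise HAMP, was at 4.41 and 4.82 in Huh7 control arrays against 6.25 and 5.68 with knockdown, a rise of 1.35 (SE 0.19, limma adjusted p = 0.00561). The interleukin receptor IL6R rose by 0.81 (SE 0.17, limma adjusted p = 0.0219), and its signalling partner IL6ST was at -0.68 (SE 0.16, limma adjusted p = 0.0327), a fall. Of the 3 probe sets of IL6R 2 rose, and of the 7 of IL6ST 5 fell. In Hep-3B, where the brightest probe set of IL6ST was at -0.07, 3 of the 7 were called. INHBB was furthest from 0 in Hep-3B (-0.50, limma adjusted p = 0.0709).

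Of 8 storage and export genes 0 were called by limma in either line, and of 16 uptake genes 1 was called in each (6.25%). Over all genes 0.956% were called in Hep-3B and 10.7% in Huh7. FTL, the ferritin light chain, was at 13.62 to 13.83 on all arrays (0.08 in Hep-3B, limma adjusted p = 0.75, and 0.11 in Huh7, limma adjusted p = 0.56), close to the top of the array's range. FTH1 had no probe set of its own and was not analysed here. TF, the iron carrier of plasma, was at -0.06 in Hep-3B (limma adjusted p = 0.896) and -0.10 in Huh7 (limma adjusted p = 0.716). CP, the copper oxidase that loads exported iron onto transferrin, had the largest differences of the storage and export list, -1.70 in Hep-3B (limma adjusted p = 0.136) and 0.56 in Huh7 (limma adjusted p = 0.591), with uneven knockdown arrays of 5.87 and 4.39 in Hep-3B and 7.78 and 9.27 in Huh7. It was called in Hep-3B without knockdown replicate 1 (-2.44, limma adjusted p = 0.0428) and was at -0.96 without replicate 3. Among the uptake genes STEAP3, a ferrireductase that works with TFRC, rose in Hep-3B (8.42 and 8.41 in control, 8.95 and 9.38 with knockdown, 0.75, SE 0.14, limma adjusted p = 0.0447). In Huh7 this probe set of STEAP3 was not called (0.27, limma adjusted p = 0.299). Of the 2 probe sets of the gene, 1 was called higher in Hep-3B and 1 in Huh7. STEAP1, of the same family, fell in Huh7 (-0.82, SE 0.14, limma adjusted p = 0.0105). Of the 8 fits that leave out an array the call of STEAP3 held in 1, without Hep-3B knockdown replicate 1 (0.97), and without replicate 3 the value was 0.54. Most of these fits called far fewer of all probe sets in Hep-3B than the main fit. Among 9 genes of iron regulatory protein turnover and other transcripts with the element, 1 was called in Huh7. That is 11.1%, near the 10.7% of all genes. The called gene, SKP1, a subunit of the ubiquitin ligase that degrades IREB2 protein, rose in Huh7 (0.45, SE 0.10, limma adjusted p = 0.0249). CDC14A was furthest from 0 in Hep-3B (-0.19, limma adjusted p = 0.628). In Huh7 its brightest probe set was not called (-0.41, limma adjusted p = 0.138), but 1 of its 5 probe sets was called lower.

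Of 22 genes of haem synthesis, transport and breakdown, 2 rose in Huh7 (9.09%, against 10.7% of all genes), a share near that of all genes. HMOX1, which releases iron from haem, was at 8.01 and 8.24 in Huh7 control arrays against 8.90 and 8.80 with knockdown and rose by 0.73 (SE 0.14, limma adjusted p = 0.016). In Hep-3B it was at 8.70 and 8.65 in control arrays against 8.91 and 9.29 with knockdown (0.43, limma adjusted p = 0.174). LRP1, a receptor for haem bound to hemopexin, rose in Huh7 by 0.50 (limma adjusted p = 0.0343), in 1 of its 4 probe sets. FLVCR1, a haem exporter, was furthest from 0 in Hep-3B (0.44, limma adjusted p = 0.0971). Of 27 mitochondrial iron and iron-sulfur cluster genes 4 fell and 1 rose in Huh7 (18.5%, against 10.7% of all genes). IBA57, a cluster assembly factor, was at -0.61 (SE 0.11, limma adjusted p = 0.0141), the transporter ABCB10 at -0.51 (limma adjusted p = 0.0407) and the chaperone HSPA9 at -0.49 (limma adjusted p = 0.0158), all falls. Of the 4 probe sets of IBA57 1 fell, and of the 4 of HSPA9 3 fell. None was called in Hep-3B, where NFS1 stood furthest from 0 (0.26, limma adjusted p = 0.295). In Huh7 the brightest probe set of NFS1 was not called (0.27, limma adjusted p = 0.179), but 1 of its 2 probe sets was called higher. Of the 19 calls in Huh7, all lists together, fewer were left without 1 control array of either line, where fewer of all probe sets were called too.

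**Figure D4:**
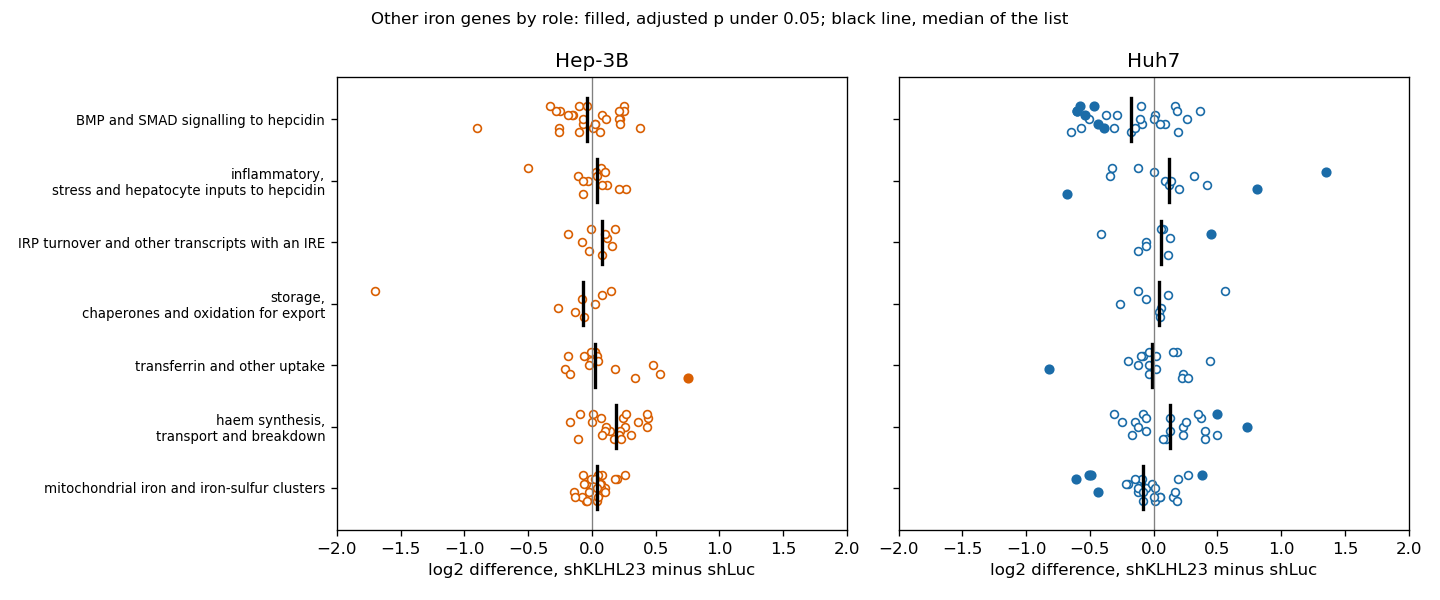
Log2 difference between knockdown and control (x axis) for each measured gene of the 7 iron lists (y axis), in Hep-3B at left and Huh7 at right. Each point is a gene, filled points were called at a limma adjusted p under 0.05 and black lines are list medians. In Huh7 the 7 filled points of the BMP and SMAD list all lie left of 0, and in Hep-3B the only filled point is STEAP3.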

How the data were processed

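RNA of 8 samples of Hep-3B and Huh7 was hybridised to Affymetrix arrays. The deposited values are log2 expression per probe set, which the authors computed by RMA; the submitters' processing notes name Affymetrix Expression Console 1.2. RMA equalises the distribution of the arrays and shrinks changes of dim probe sets, and the table carries no background call. Other RMA settings: not given in the sources used here.

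The platform annotation paired 41097 probe sets with 1 gene symbol and 1801 with several and left 11777 unnamed. A linear model with a mean per group was fitted to all 54675 probe sets and 8 arrays (limma 3.58.1, R 4.3.3, eBayes; 4 residual and 5.16 prior degrees of freedom). Benjamini-Hochberg adjustment ran over the whole table, and a call needs an adjusted p under 0.05. SEs of log2 differences are limma's moderated ones, and intervals are at 95%. The number of arrays limits the precision.

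Members and lists were chosen with earlier results of these data known. Named list genes are, per list and line, up to 3 called genes with the largest change, or the largest difference where none was called, plus KLHL23, FTH1, FTL, TF, HFE, HJV, HMOX1, ID1 and SMAD7. Other called list genes that the text names (SMAD5, BAMBI and FURIN) complete a count. Likeness was computed for HAMP and members spanning at least 1 log2 unit, 3 genes each. The fit was tested on simulated data. Alternatives were other normalizations, filters, weights, variance models, features and samples.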

Additional observations from a re-analysis of the deposited data

Results flagged for a closer look

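A test of the difference between the knockdown effects of the lines was called for 3 member probe sets. SLC40A1 223044_at had a larger rise in Huh7 than in Hep-3B, by 1.09. SLC11A2 203124_s_at and 203123_s_at were lower in Huh7 knockdown and at positive values in Hep-3B, with differences between the lines of -0.86 and -0.76. The 3 other SLC11A2 probe sets and the dimmer SLC40A1 probe set did not have a called difference between the lines. KLHL23 itself differed by -1.14 in Hep-3B and -2.05 in Huh7, and its part in these differences was not tested.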

How the results depend on the processing

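Knockdown directions of the called members held under every alternative run. Of the 2 member calls in Hep-3B, 0 were left with 1 probe set a gene or with further quantile normalization (0.693% and 1.1% of all called). None was left with Hep-3B fitted alone or without probe sets ending in _x_at or _s_at (0% and 0.807%). The main fit called 1.14% of all. Of the 4 in Huh7, 2 were left without the _x_at and _s_at probe sets, where 7% of all were called against 8.49%. For the difference between lines the count fell from 3 to 1 with the replicate number as a block (0.975% of all, against 0.933%). It was also 1 without _x_at and _s_at probe sets (0.812%). Most fits without 1 array called fewer of all probe sets, so member counts are not read from them. Between the controls the count was 4 of 8 with 1 probe set a gene, 1 higher and 3 lower, against 7 of 24 in the main fit (32.7% and 25.8% of all called). Without _x_at and _s_at probe sets it was 4 of 15, all lower (21.8% of all). The filter on dim probe sets gave 8 of 16 and further quantile normalization 8 of 24, each with 1 higher (47% and 25.9% of all). An intensity trend with robust eBayes gave 9, 1 higher (27.6%), and array weights 9, 2 higher (32.1%). Some called probe sets are absent from the settings with 1 probe set a gene or without _x_at and _s_at probe sets, but SLC40A1 223044_at is present in both and its Hep-3B call was lost there; the cause was not tested.

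For the other iron genes the Hep-3B count of 1 became 0 with 1 probe set a gene, with Hep-3B fitted alone or without _x_at and _s_at probe sets, 2 with the filter on dim probe sets, 3 with array weights or the replicate block, 4 with an intensity trend and robust eBayes, and 0 to 5 without single arrays. The Huh7 count of 19 became 4 with Huh7 fitted alone, 11 without _x_at and _s_at probe sets and 0 to 18 without single arrays. The block left it at 14. CDC14A changed sign in Hep-3B without knockdown replicate 3 (0.01; lowest -0.38 without replicate 1) and CP in Huh7 without knockdown replicate 3 (-0.18; highest 1.3 without replicate 1), and neither was called. The cause of the other shifts was not tested.

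The replicate numbers are not a pairing the labels explain: same-numbered arrays deviated from their group means with a correlation of -0.0348 in Hep-3B and 0.0533 in Huh7 over all probe sets, and each line has 2 pairs. Leaving out 1 array leaves a lone array in its group, which is assumed to vary like the others. Over all probe sets the Hep-3B count of 623 was 0 with Hep-3B fitted alone and 1986 without knockdown replicate 1, and the Huh7 count of 4643 was 545 without control replicate 3.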

Other observations

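HP, HPX and CP, picked out after their values were seen, differed between the 2 Huh7 knockdown arrays. HP, which binds free haemoglobin, was at 9.67 and 9.70 in control arrays and at 9.54 and 10.83 in knockdown replicates 1 and 3. HPX, which binds haem, was at 7.43 and 7.52 against 7.57 and 8.20, and CP at 7.96 and 7.97 against 7.78 and 9.27. Replicate 3 was the higher array for all 3 genes, and none was called in Huh7 (limma adjusted p = 0.416, 0.265 and 0.591). HAMP was also higher in knockdown replicate 3 (7.79) than in replicate 1 (7.19), whereas FTL was at 13.75 in replicate 1 and 13.72 in replicate 3. LTF, a dim gene, was at 4.29 and 3.96 with knockdown, with a like gap in the Huh7 control arrays (4.23 and 3.98).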
